A study of Mus musculus with 6 samples.

Results

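Genes of the cell cycle and of DNA replication were followed through the first days of skin repair. The 44 listed genes were matched by symbol to an Affymetrix mouse gene array, with 1 probe set per gene, the one with the highest mean over the 6 arrays. Of these 44 genes, 43 were measured among 19938 genes in all, and Cdkn1a was the one not matched to a probe set with a single symbol. All samples were back skin from inbred male mice of the BALB/c strain, 5 to 6 weeks of age, and the labels name no genetic change and no drug. The 3 groups were intact skin, wounds on day 1 and wounds on day 4 after injury, with 2 arrays each. Each wounded mouse was shaved and carried 2 punch wounds of 4 mm. An 8 mm punch took the wound with the skin around it. By punch size the wound as made was 25% of the sampled area, and its share on days 1 and 4 was not measured here. The replicates are called biological, and whether RNA of 1 mouse or of several went onto each array is not stated, so n counts arrays and the p-values measure the spread between these samples. With 2 arrays a group, precision is limited throughout.

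Dividing cells first license replication origins by loading the MCM helicase with the help of Cdc6 and Cdt1, a step that belongs to G1. D-type and E-type cyclins with their kinases then release the E2F factors, which switch on genes for the replication fork and for nucleotide supply. Genes of mitosis are transcribed later, in G2, through the MuvB complexes that bind the cell cycle homology region of promoters, often next to CCAAT boxes bound by NF-Y. Inhibitors of the Cip/Kip family (Cdkn1a, Cdkn1b and Cdkn1c) hold cyclin-dependent kinases in check. In intact skin, dividing cells are found in the basal epidermis and in the matrix of growing hair follicles. In a wound, keratinocytes behind the edge, fibroblasts, endothelial cells and some immune cells also divide.

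The listed genes fell into 5 roles, with 12 genes of licensing and the fork, 3 of nucleotide supply, 6 cyclins and regulators of the G1 to S transition, 20 of mitosis and the 3 inhibitors. The first 2 roles together are called replication genes here, 15 in all. Promoter stretches of 4 members are shown because they hold the sequence words by which these roles are known to be driven. Each is the 140 bases before the gene's start in RefSeq (mouse build GRCm38.p6), written 5′ to 3′ on the gene's strand, with capitals for the words searched on both strands. The words were TTCGCGC and TTGGCGC for the E2F core, TTTGAA for the cell cycle homology region and CCAAT for the CCAAT box. Kif11 (chr19:37376242-37376381, plus strand) and Cdc20 (chr4:118437344-118437483, minus strand) encode a spindle motor and an activator of the anaphase-promoting complex. Cdk1 (chr10:69352913-69353052, minus strand) encodes the mitotic kinase and Mcm6 (chr1:128359706-128359845, minus strand) a helicase subunit.
Kif11: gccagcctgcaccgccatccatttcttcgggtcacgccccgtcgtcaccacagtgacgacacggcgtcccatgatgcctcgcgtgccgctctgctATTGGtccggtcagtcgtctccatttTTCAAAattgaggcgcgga
Cdc20: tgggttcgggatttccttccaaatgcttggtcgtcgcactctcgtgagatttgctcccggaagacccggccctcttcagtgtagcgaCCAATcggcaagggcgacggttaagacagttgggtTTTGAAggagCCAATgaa
Cdk1: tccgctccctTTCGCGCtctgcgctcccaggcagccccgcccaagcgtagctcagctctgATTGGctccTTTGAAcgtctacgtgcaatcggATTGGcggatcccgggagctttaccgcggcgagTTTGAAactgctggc
Mcm6: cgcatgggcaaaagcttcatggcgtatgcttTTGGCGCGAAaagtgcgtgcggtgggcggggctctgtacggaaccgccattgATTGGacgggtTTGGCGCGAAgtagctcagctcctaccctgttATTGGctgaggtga

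In these stretches Kif11 had 1 homology region word and 1 CCAAT box, and Cdc20 had 1 and 2. Cdk1 had 2 of each and 1 E2F word, and Mcm6 had 2 E2F stretches, in each of which both E2F words overlap, with 2 CCAAT boxes and no homology region word. Over whole promoter entries of 300 bases, 250 before and 50 after the start, 34 of the 44 genes had an entry. The homology region word stood in 13 of 16 mitotic genes (81.2%), in 2 of 13 replication genes (15.4%) and in 20.2% of all 27025 genes with an entry. All 13 of those mitotic genes also held a CCAAT box, a pairing found in 8.97% of all genes and in 8.37% of protein-coding ones. An E2F word stood in 6 of 10 licensing and fork genes (Mcm3, Mcm5, Mcm6, Mcm7, Cdt1 and Hells), in 2 of 16 mitotic genes (Mki67 and Cdk1), in 0 of 3 nucleotide supply genes and in 4.47% of all genes. In Mcm7 an E2F word overlapped a CCAAT box. A match describes the letters of this window and is not a binding site.

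On day 1 the mitotic genes were lower than in intact skin, while most replication genes showed no called change. Of the 20 mitotic genes 15 fell and none rose, with a median log2 difference of -0.41, and on 19 of the 20 both day 1 arrays lay below both intact arrays. Of the 15 replication genes 3 fell and none rose, with a median of -0.12, and in 7 of them both day 1 arrays lay below both intact arrays. In all, 19 of the 43 genes were lower at an adjusted p under 0.05 (limma, Benjamini-Hochberg over all genes) and 0 were higher. Of all genes tested 29.3% were called, 14.6% lower and 14.7% higher. At an unadjusted p under 0.05, 24 members were lower and 2 higher, and with cyclic loess scaling 2 members, Mcm4 and Gins1, were called higher. Both day 1 arrays lay below both intact arrays for 29 members, against 38.2% of all genes, whose median difference was -0.04.

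**Figure D1:**
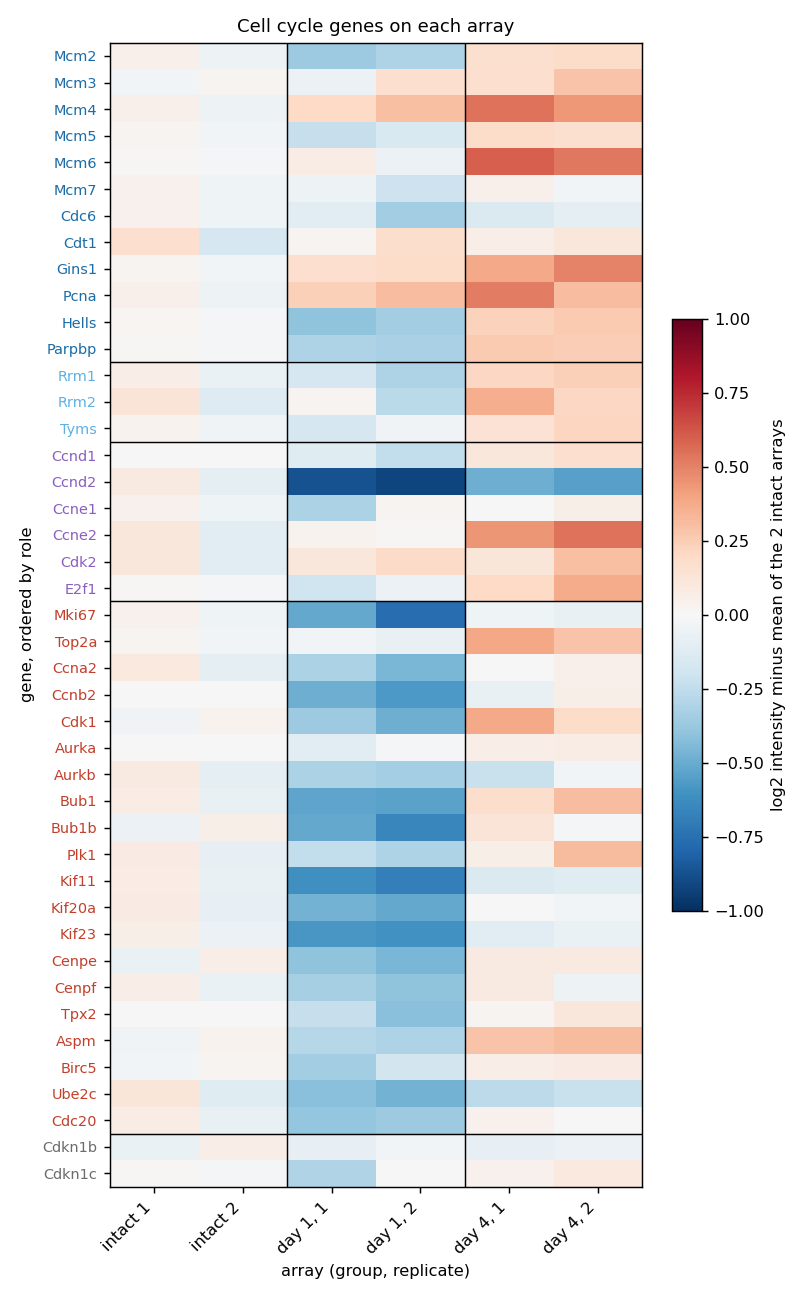
Log2 intensity of each of the 43 genes on each of the 6 arrays, as the difference from the mean of the 2 intact arrays (colour, from -1 to 1). Rows are genes in the order of the 5 roles, separated by lines and coloured by role, and columns are arrays. Most mitotic rows are blue on both day 1 arrays, with those of Aurka and Top2a close to white. The rows of Mcm4, Mcm6, Gins1 and Pcna are red on both day 4 arrays.

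Among the mitotic genes Kif11 fell most. Kif11, which slides spindle poles apart, had log2 intensities of 8.56 and 8.41 on the intact arrays, 7.87 and 7.80 on day 1 and 8.34 and 8.36 on day 4. It fell by 0.65 on day 1 (SE 0.08, adjusted p = 0.00211 by limma), or 1.57-fold, and the day 1 arrays lay apart from all 4 others. Kif23, a motor of the central spindle, stood at 8.45 and 8.34 in intact skin, 7.81 and 7.79 on day 1 and 8.28 and 8.33 on day 4. Its fall of 0.60 (SE 0.08, adjusted p = 0.00218 by limma) was of the same order, and Kif20a, which acts in cytokinesis, fell by 0.49 (adjusted p = 0.00639 by limma). Mki67, the coat protein of mitotic chromosomes used as a proliferation marker, was at 9.73 and 9.64 in intact skin, 9.17 and 8.92 on day 1 and 9.64 and 9.61 on day 4. Its fall of 0.64 had an SE of 0.10 and an adjusted p of 0.00481 by limma. The 2 day 1 arrays of Mki67 differed from each other more than those of the kinesins and still lay below all others.

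The spindle checkpoint kinases moved in the same way. Bub1 read 7.68 and 7.53 in intact skin, 7.08 and 7.07 on day 1 and 7.78 and 7.91 on day 4, and Bub1b read 7.55 and 7.66, then 7.09 and 6.95, then 7.73 and 7.59. They fell by 0.53 (SE 0.09, adjusted p = 0.00578) and by 0.59 (SE 0.09, adjusted p = 0.00492) in the limma fit. Ccnb2, the B-type cyclin that partners Cdk1, read 9.55 and 9.54, then 9.06 and 8.97, then 9.47 and 9.60, and fell by 0.53 on day 1 (adjusted p = 0.00427). Cdk1 itself read 9.48 and 9.55, then 9.15 and 9.03, then 9.89 and 9.70, and fell by 0.43 (adjusted p = 0.0175). For these 4 genes no day 1 array overlapped the intact or the day 4 arrays. The other mitotic genes that fell included the centromere motor and kinetochore genes Cenpe (by 0.43) and Cenpf (by 0.36). Among them were also the ubiquitin pathway genes Ube2c (by 0.45) and Cdc20 (by 0.37) and the S and G2 cyclin Ccna2 (by 0.39). The remaining ones were the spindle assembly factor Tpx2 (by 0.32) and the spindle pole gene Aspm (by 0.29).

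The 5 mitotic genes without a call on day 1 were Aurkb at -0.33 (adjusted p = 0.0507), Birc5 at -0.27 (0.0596), Plk1 at -0.27 (0.116), Aurka at -0.06 (0.58) and Top2a at -0.05 (0.666), all by limma. Aurkb and Birc5 encode the kinase and the survivin subunit of the chromosomal passenger complex, and Plk1 and Aurka are mitotic kinases. Top2a and Aurka lay closest to intact skin of the mitotic genes. Top2a, the topoisomerase that untangles replicated chromosomes, read 8.77 and 8.72 in intact skin, 8.72 and 8.67 on day 1 and 9.13 and 9.03 on day 4. Its 95% interval on day 1 ran from -0.23 to 0.13, and that of Aurka from -0.23 to 0.11. The called mitotic genes lay between -0.65 and -0.29.

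Among replication genes, those that fell on day 1 were Hells (by 0.37, SE 0.07, adjusted p = 0.00942), Mcm2 (by 0.33, SE 0.07, adjusted p = 0.0179) and Parpbp (by 0.32, SE 0.07, adjusted p = 0.0164) in the limma fit. Hells is a chromatin remodeller of replicating cells, Mcm2 a subunit of the helicase and Parpbp a regulator of recombination at forks. Subunits of the same helicase ring did not move together: Mcm4 was at 0.25 (95% interval 0.05 to 0.45), Mcm3 at 0.06, Mcm6 at 0.01, Mcm7 at -0.13 and Mcm5 at -0.19, none of them called. Pcna, the sliding clamp of DNA polymerases, was at 0.28 and Gins1, part of the active helicase, at 0.17, and for Mcm4, Pcna and Gins1 both day 1 arrays lay above both intact arrays. These were 3 of the 15 replication genes, while 29% of all genes had that pattern. Of the licensing loaders, Cdc6 was at -0.23 and Cdt1 at 0.10. The nucleotide supply genes were at -0.24 for Rrm1 and -0.12 for Rrm2, the subunits of ribonucleotide reductase, and -0.10 for the thymidylate synthase gene Tyms, without a call.

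The largest fall of all 43 genes on day 1 was that of a G1 cyclin. Ccnd2, cyclin D2, which binds Cdk4 and Cdk6, read 10.26 and 10.08 in intact skin, 9.30 and 9.25 on day 1 and 9.68 and 9.63 on day 4. It was 1.86-fold lower on day 1 (log2 difference -0.89, SE 0.09, adjusted p = 7.99e-04 by limma). Ccnd1, the related cyclin D1, read 9.60 and 9.60, then 9.48 and 9.35, then 9.71 and 9.77, a difference of -0.18 on day 1 (adjusted p = 0.131 by limma) with a 95% interval of -0.37 to 0.00. The remaining 4 G1/S genes, Ccne1, Ccne2, Cdk2 and E2f1, lay between -0.15 and 0.15 on day 1.

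Of the 19 genes that fell, 8 kept their call whichever single array was left out, namely Ccnd2, Mki67, Ccnb2, Bub1, Bub1b, Kif11, Kif20a and Kif23. The count was 9 when day 1 wound replicate 2 was left out, and also 9 when intact skin replicate 1 was. The median of the mitotic genes ranged from -0.46 to -0.33 over these fits.

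Other genes of the same pathways, taken from lists chosen with earlier results of these data known, were counted in the same way. Of 54 other mitotic genes 28 were lower on day 1 and 1, the centromere gene Cenpi, was higher, with a median of -0.28. The microtubule regulator Stmn1 fell by 1.00, the spindle gene Ckap2 by 0.66, the centromeric histone Cenpa by 0.62 and the spindle gene Dlgap5 by 0.52. Of 45 other replication genes 3 rose and 3 fell, with a median of -0.06. The share called was 53.7% of the other mitotic and 13.3% of the other replication genes, against 29.3% of all genes. The deoxycytidine kinase Dck rose by 0.72 and the origin recognition genes Orc3 and Orc1 by 0.44 and 0.37, while the single-strand binding subunit Rpa3 fell by 0.49, the kinase activator Dbf4 by 0.48 and the clamp loader Rfc4 by 0.38 (Orc1 and Dbf4 are named after their values were seen).

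Of 18 other G1/S regulators 3 rose and 5 fell on day 1, a share of 44.4% against 29.3% of all genes. E2f2 and E2f3, activator E2Fs, fell by 1.07 and 0.73, and Mycn, a Myc family factor, fell by 1.36, while the Cdk6 kinase rose by 0.85. Myc (0.69) and cyclin Ccnd3 (0.60) also rose and Skp2 and Cdc25a fell, by 0.37 and 0.34, named after their values were seen. The D-type cyclins thus differed in sign of their measured differences, with Ccnd2 lower, Ccnd3 higher and Ccnd1 not called.

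By day 4 the mitotic genes were near their intact level and several replication genes were above it. Of the 15 replication genes 6 rose against intact skin and none fell, with a median of 0.22. Of the 20 mitotic genes 2 rose and none fell, with a median of 0.04. Over all 43 genes 9 rose and 1 fell by limma. Of all genes tested 26.9% were called, 14.8% higher and 12.1% lower, so the share of members called, 23.3%, lay near the background. Both day 4 arrays lay above both intact arrays in 12 of 15 replication genes and in 8 of 20 mitotic genes, against 30% of all genes.

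**Figure D2:**
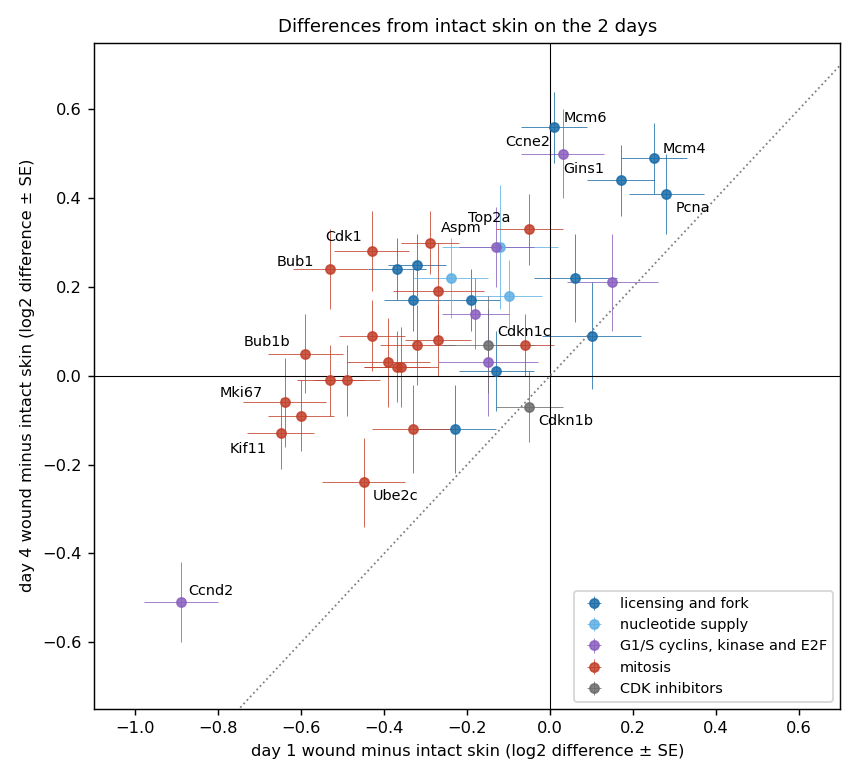
Difference from intact skin on day 1 (horizontal axis) and on day 4 (vertical axis), in log2 units, for the 43 genes coloured by role. Bars are the standard errors of the limma fit, the dotted line marks equal differences on both days, and both axes share the intact arrays. All points but those of Cdt1 and Cdkn1b lie above the dotted line, with mitotic genes at the left near the horizontal zero line and Mcm6, Mcm4, Gins1, Pcna and Ccne2 at the top.

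Mcm6 rose most on day 4. It read 8.04 and 8.01 in intact skin, 8.10 and 7.97 on day 1 and 8.62 and 8.55 on day 4, a 1.47-fold rise (log2 difference 0.56, SE 0.08, adjusted p = 0.00413 by limma). Its intact and day 1 arrays overlapped, and both day 4 arrays stood above all 4 others. Mcm4 read 7.93 and 7.83, then 8.08 and 8.18, then 8.42 and 8.31, and was higher by 0.49 on day 4 (SE 0.08, adjusted p = 0.00848 by limma). Gins1 read 6.41 and 6.36, then 6.55 and 6.57, then 6.76 and 6.88, higher by 0.44 (SE 0.08, adjusted p = 0.00912 by limma). For both genes the day 1 arrays lay between those of the other groups with no overlap, but neither the difference of day 1 from intact skin nor that of day 4 from day 1 was called. Pcna read 10.60 and 10.50, then 10.79 and 10.86, then 11.06 and 10.86, with a rise of 0.41 (SE 0.09, adjusted p = 0.0224 by limma), and its wound arrays of the 2 days touched at 10.86.

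Ccne2, cyclin E2, which drives entry into S phase with Cdk2, read 6.78 and 6.55, then 6.70 and 6.68, then 7.11 and 7.21. It rose by 0.50 on day 4 (SE 0.10, adjusted p = 0.0132 by limma), while its relative Ccne1 was at 0.03 with a 95% interval of -0.27 to 0.32. E2f1, whose product activates replication genes, read 7.72 and 7.70, then 7.51 and 7.65, then 7.91 and 8.08, and at 0.29 on day 4 (adjusted p = 0.0643 by limma) was not called. Among the mitotic genes Top2a rose by 0.33 (adjusted p = 0.0214) and Aspm by 0.30 (adjusted p = 0.0249) on day 4 in the limma fit. Hells and Parpbp, which had fallen on day 1, rose by 0.24 (adjusted p = 0.0462) and 0.25 (adjusted p = 0.0375), close to the threshold.

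Ccnd2 was the only one of the 43 genes lower than intact skin on day 4 (log2 difference -0.51, SE 0.09, adjusted p = 0.00755 by limma), with both arrays between the day 1 and the intact values. For 4 of the mitotic genes that fell on day 1, the day 4 difference from intact skin was -0.01 for Ccnb2 (95% interval -0.21 to 0.19), -0.06 for Mki67 (-0.30 to 0.18), -0.09 for Kif23 (-0.27 to 0.09) and -0.13 for Kif11 (-0.33 to 0.06). The intervals of these 4 exclude the size of the day 1 falls of the same genes. That of Ube2c did not: after a fall of 0.45 on day 1 it was at -0.24 on day 4 (-0.47 to -0.01). It was not called after adjustment on day 4, but both day 4 arrays lay below both intact arrays. Cdk1 and Bub1 were at 0.28 and 0.24 on day 4, with intervals of 0.05 to 0.51 and 0.03 to 0.45, without a call after adjustment. The 2 replication genes farthest from a rise were Cdc6 at -0.12 (-0.36 to 0.12) and Mcm7 at 0.01 (-0.20 to 0.22).

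The count of 9 rises became 4 or 5 when replicate 1 or replicate 2 of the day 4 wounds was left out, and 3 or 1 when replicate 1 or replicate 2 of intact skin was. Leaving out replicate 1 of intact skin also left the fall of Ccnd2 short of the threshold (adjusted p = 0.0526 by limma). Mcm6 kept its call in all of these fits, and the replication median lay between 0.16 and 0.26.

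Of the 45 other replication genes 5 rose and none fell on day 4, with a median of 0.09. The share called, 11.1%, was below the 26.9% of all genes. The 5 were the polymerase alpha subunit Pola1 (0.62), Dck (0.58), the primase subunit Prim2 (0.32), the polymerase delta subunit Pold3 (0.30, named after its value was seen) and the origin-firing kinase Cdc7 (0.28). Of the 54 other mitotic genes 10 rose, among them the mitotic brake kinase Wee1 (1.01), the spindle bundling gene Prc1 (0.56), the condensin subunit Smc2 (0.44) and Cenpi (0.43), and 3 fell, with a median of 0.08. The 3 were Kif18b (by 0.37), Cdca3 (by 0.29) and Ckap2 (by 0.28), named after their values were seen. Of the 54 genes 24.1% were called in either direction, near the 26.9% of all genes. E2f2, E2f3 and Mycn were lower than in intact skin, at -0.86, -0.71 and -1.17, and Cdk6 was higher, at 0.76.

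Between the wound days, 10 of the 20 mitotic genes were higher on day 4 and none lower. All 20 had positive differences and in all 20 both day 4 arrays lay above both day 1 arrays, a pattern found in 25.6% of all genes. Their median was 0.47, and the 10 without a call included Aurka at 0.13, Aurkb at 0.20 and Ube2c at 0.21. Of the 15 replication genes 4 were higher and none lower, with a median of 0.28. Of these 15, 14 had positive differences, and in 11 both day 4 arrays lay above both day 1 arrays. In all 14 of 43 genes were higher and 0 lower on day 4 than on day 1 by limma, against 2.23% of all genes called, 1.09% higher and 1.14% lower. At an unadjusted p under 0.05 the counts were 31 and 0. In 36 of the 43 genes both day 4 arrays lay above both day 1 arrays.

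The largest step was that of Bub1, at 0.77 (SE 0.09, adjusted p = 0.0223 by limma), or 1.71-fold. Cdk1 followed at 0.71 (adjusted p = 0.0301), Bub1b at 0.64 (0.0361) and Hells at 0.62 (0.0223). Hells read 6.80 and 6.76 in intact skin, 6.38 and 6.43 on day 1 and 7.01 and 7.04 on day 4, so that it passed below and then above the intact arrays with no overlap between any of the groups. Parpbp, with 6.26 and 6.23, then 5.94 and 5.92, then 6.51 and 6.49, and Aspm, with 7.15 and 7.22, then 6.90 and 6.88, then 7.47 and 7.50, showed the same order. These 3 were the genes called in all 3 comparisons. The calls of Hells and Parpbp between day 4 and intact skin were lost when only those 2 groups were in the fit. Both were also lost with a prior that follows the mean-variance trend. That of Hells was lost under median centring and under the replicate block as well. A further 10 were called lower on day 1 and higher on day 4 than on day 1 without a call between day 4 and intact skin: Mcm2, Mki67, Ccnb2, Cdk1, Bub1, Bub1b, Kif11, Kif20a, Kif23 and Cenpe. The comparisons share groups, so these calls are not independent of each other.

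The calls between the wound days rest on the estimate of the spread from all 6 arrays. With any 1 array left out, 0 of the 14 remained past the threshold, except that 1 (Cdk1) did without day 4 wound replicate 2, and with only the 4 wound arrays in the fit there were 0. The counts over all genes shrank too, from 217 higher genes to between 4 and 67 with an array left out. The median of the mitotic genes stayed between 0.44 and 0.50. Of the 54 other mitotic genes 15 were higher on day 4 than on day 1 and none lower, among them Stmn1 (0.87), Prc1 (0.68), Dlgap5 (0.60) and the cytokinesis gene Ect2 (0.57), all 54 had positive differences, and in 52 the day 4 arrays lay above the day 1 arrays. None of the 45 other replication genes was called between the days, a comparison in which 2.23% of all genes were called. Of these 45, 36 had positive and 9 negative differences. In 28 both day 4 arrays lay above both day 1 arrays and in 3 below them.

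**Figure D3:**
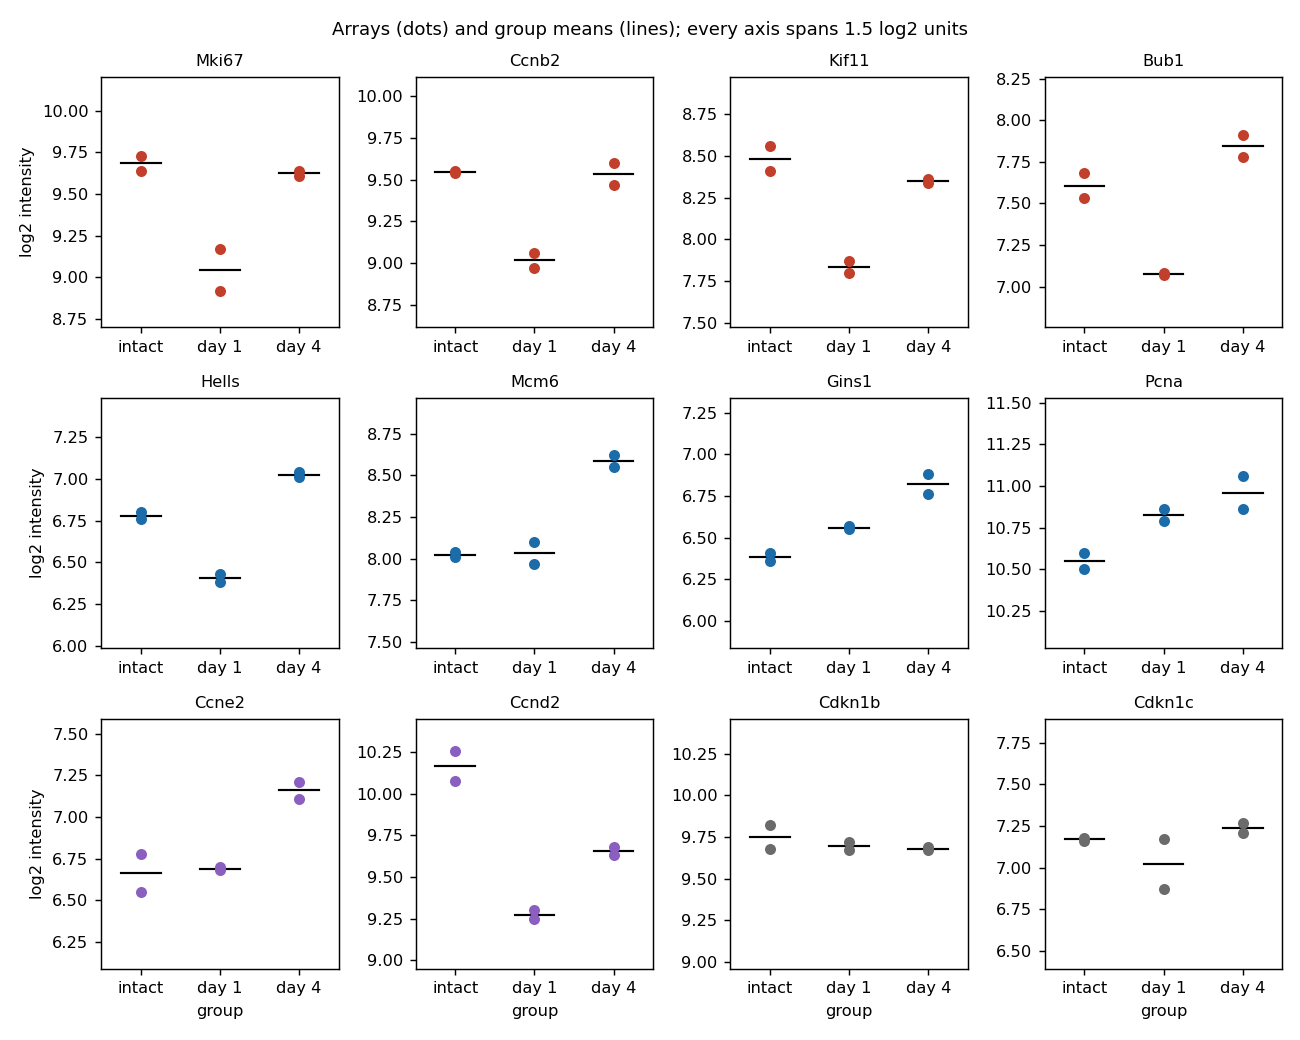
Log2 intensity (vertical axes, each spanning 1.5 units) of 12 genes in intact skin, day 1 wounds and day 4 wounds. Dots are arrays, 2 a group, and lines are group means, with colours by role. Mki67, Ccnb2, Kif11 and Bub1 dip on day 1, Mcm6 and Ccne2 are high on day 4 alone, and Cdkn1b stays within 9.67 to 9.82 on all arrays.

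Of the inhibitors, Cdkn1b, which encodes p27, read 9.68 and 9.82 in intact skin, 9.67 and 9.72 on day 1 and 9.67 and 9.69 on day 4. Its differences from intact skin were -0.05 on day 1 (95% interval -0.25 to 0.14) and -0.07 on day 4 (-0.26 to 0.12). Cdkn1c, which encodes p57, read 7.18 and 7.16, then 6.87 and 7.17, then 7.21 and 7.27, with differences of -0.15 (-0.41 to 0.11) and 0.07 (-0.19 to 0.33). Neither was called in any comparison (limma), and the interval of Cdkn1c on day 1 reached the median of the mitotic genes. Of 17 other inhibitors, p53 pathway genes and antiproliferative genes, 6 rose and 6 fell on day 1, with a median of 0.21. The share called was 70.6%, against 29.3% of all genes. The antiproliferative genes Btg2 and Tob1 were at 0.50 and -0.65, the stress kinase gene Plk2 at -0.71, and Cdkn2c, the Cdk4 and Cdk6 inhibitor p18, at -0.58. The other rises were Gadd45b (0.65), Gadd45g (0.64), Cdkn2d (0.62), Ccng1 (0.46) and Phlda3 (0.30). The other falls were Cdkn2b (by 0.44), Cdkn2a (by 0.40) and Sesn2 (by 0.33). These other genes were named after their values were seen. Cdkn2c read 7.95 and 7.91, then 7.36 and 7.35, then 8.12 and 8.01, and was the single gene of this list called between the wound days, higher by 0.71 (SE 0.08, adjusted p = 0.019 by limma). It was lowest on day 1, with no overlap between any of the groups. On day 4, 3 genes of this list were higher and 5 lower than in intact skin, among them Gadd45b, a growth arrest gene, at 0.60, Tob1 at -0.55, Plk2 at -0.57 and Sesn2, a stress response gene, at -0.40. That was 47.1% of the list, against 26.9% of all genes.

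Replication and mitosis were set side by side on each array, as list medians relative to the mean of the intact arrays. The replication median was 0.04 and -0.04 on the intact arrays, -0.06 and -0.15 on day 1 and 0.21 and 0.24 on day 4. The mitotic median was 0.05 and -0.05, then -0.38 and -0.46, then 0.05 and 0.05. The mitotic median minus the replication median was 0.01 and -0.01 in intact skin, -0.32 and -0.31 on day 1 and -0.16 and -0.18 on day 4. This difference was below 0 on all 4 wound arrays and farther below on day 1. In the larger lists the 54 other mitotic genes had medians of -0.27 and -0.29 on day 1 and 0.05 and 0.08 on day 4, and the 45 other replication genes -0.10 and -0.01, then 0.09 and 0.11, so on day 4 those lists lay close together. These are descriptions of lists chosen with results known and carry no test.

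**Figure D4:**
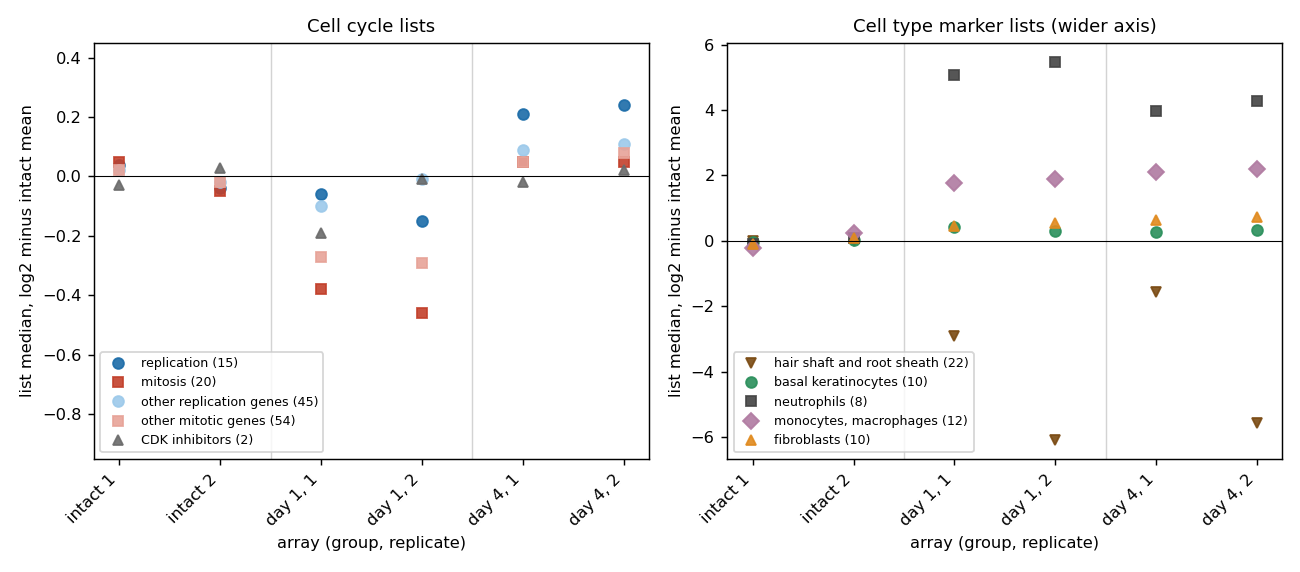
Median of each list on each of the 6 arrays, as log2 difference from the mean of the 2 intact arrays. The left panel shows cell cycle lists and the right panel marker lists of cell types on a wider axis, with the number of genes in brackets. The mitotic median falls to -0.38 and -0.46 on day 1 and is 0.05 on both day 4 arrays, while the hair median is -2.90 and -6.08 on day 1 and -1.55 and -5.58 on day 4.

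Cell type markers moved in the same biopsies, and in whole skin fewer dividing cells and less RNA per cell cannot be told apart. Of 22 measured hair genes (shaft and inner root sheath) 16 were lower on day 1 and 8 on day 4, and none was higher. On each day both wound arrays lay below both intact arrays for all 22, against 38.2% and 36% of all genes. None of the 22 was called between the wound days. Their median log2 level was 11.91 and 11.93 in intact skin, 7.93 and 6.08 on day 1 and 10.14 and 6.43 on day 4, and 2 of them lay under an array's lower quartile (5.29 to 5.37) on at least 1 array. On the same arrays the mitotic medians relative to intact skin were -0.38 and -0.46 on day 1 and 0.05 and 0.05 on day 4, and the hair medians -2.90 and -6.08, then -1.55 and -5.58. Of 10 basal keratinocyte markers 6 were higher and 1 lower on each day, with medians of 0.36 and 0.29 and levels of 10.14 and 10.20 in intact skin against 10.52 to 10.73 in wounds. All 8 matched neutrophil markers, genes of cells that do not divide in tissue, were higher on both days, with medians of 5.27 and 4.13, levels of 5.56 to 5.64 in intact skin and 9.71 to 11.08 in wounds, and 3 of them under the lower quartile on at least 1 array. All 12 monocyte and macrophage markers were higher on both days, with medians of 1.86 and 2.14. Of 10 fibroblast markers 6 and then 8 were higher (medians 0.43 and 0.65), and of 10 endothelial markers 7 and then 9 (0.92 and 0.61). Of 10 wound-edge keratinocyte genes 9 were higher on each day (2.73 and 2.53), and of 8 T cell markers 3 (0.15 and 0.30). The part of these shifts in the cell cycle results was not tested.

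All 43 genes lay above the lower quartile of the array on all 6 arrays. Pcna, Top2a and Cdkn1b had a second probe set. That of Pcna gave 0.25 on day 1 and 0.41 on day 4 against intact skin, close to the brighter one, and that of Cdkn1b gave 0.07 and 0.23. The second probe set of Top2a was dim, at 3.02 to 3.57 on 5 arrays and 5.54 on day 4 wound replicate 1, and with both Top2a probe sets averaged the day 4 difference of 0.92 was not called (adjusted p = 0.0659 by limma).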

How the data were processed

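RNA from 6 skin samples was measured on Affymetrix mouse gene arrays. Values were deposited on the log2 scale, 1 per probe set, and the authors made them with RMA per the submitters' processing notes (version not given in the sources used here). Array medians lay close together, so differences are relative to all probe sets. Of 35556 probe sets, 21789 carried 1 gene symbol, 1621 carried several and were left out (that of Cdkn1a among them), and 12146 were not in the annotation. Medians were 6.89 to 6.93 on the 6 arrays, and replicates correlated over genes at 0.9967 (intact skin), 0.9891 (day 1) and 0.9861 (day 4). Over 19938 genes limma 3.58.1 in R 4.3.3 (a mean per group, eBayes, 3 residual and 3.4 prior degrees of freedom) gave 3 two-sided contrasts, with Benjamini-Hochberg adjustment over all genes, a threshold of 0.05 and 95% intervals. "Rose", "fell" and "called" refer to this threshold. The procedure was checked on simulated data with independent arrays and set differences larger than that of any member. The check does not bear on calls of the size reported here.

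The members and all lists were chosen with earlier results of these data known. Every member could be named, and of each other list and contrast the up to 4 called genes with the smallest p. Symbols were checked against RefSeq (GRCm38.p6), which changed 0 of them. Alternatives were 3 scalings, 2 priors, a fit with 2 groups alone, a filter on the dimmest 30% of genes, the mean of probe sets, the replicate number as a block and each array left out.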

Additional observations from a re-analysis of the deposited data

Results flagged for a closer look

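For 14 genes the difference from intact skin was called unequal between the days. The test was that of day 4 against day 1 wounds (limma, adjusted p under 0.05). With only the wound arrays in the fit, 0 of them were called. Among mitotic genes the log2 step from day 1 to day 4 was 0.77 for Bub1, 0.71 for Cdk1, 0.64 for Bub1b, 0.59 for Aspm, 0.58 for Mki67, 0.52 for Ccnb2, Kif11 and Cenpe, 0.50 for Kif23 and 0.48 for Kif20a. Among replication genes it was 0.62 for Hells, 0.57 for Parpbp, 0.55 for Mcm6 and 0.50 for Mcm2. In all 14 both day 4 arrays lay above both day 1 arrays. Mcm6 differs from the other 13 in that it was not lower on day 1 (0.01) before it stood at 0.56 on day 4.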

How the results depend on the processing

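With 2 arrays a group, leaving out 1 array also lowers the residual degrees of freedom, and a group left with 1 array is assumed to vary like the others. Members called lower on day 1 then numbered 9 to 19, members higher on day 4 than intact 1 to 7 and lower 0 to 1, and members higher on day 4 than day 1 0 to 1, with 0 called higher on day 1 and 0 lower between the days. Over all genes the ranges were 1773 to 2901 higher and 1376 to 2772 lower on day 1, 1393 to 2760 and 853 to 2147 on day 4, and 4 to 67 and 5 to 117 between the days. The replication median on day 4 ranged from 0.16 to 0.26. With only the 2 groups compared in the fit, 0 members and 8 genes were higher and 9 genes lower on day 4 than day 1. Cyclic loess called 2 members, Mcm4 and Gins1, higher on day 1. The mean of probe sets put the inhibitor median on day 4 at 0.07. The replicate block gave 348 genes lower on day 4 than day 1 against 227, and the same counts of members as without the block: 0 higher and 19 lower, 9 and 1, and 14 and 0. On day 4 Hells lost its call and Rrm2 gained one under the block. Over genes, replicate 1 minus replicate 2 correlated at 0.685 between the wound days. Wound arrays with the same replicate number thus shared part of their difference, which the main fit did not use. Between intact skin and days 1 and 4 the correlation was 0.014 and 0.023. No called member changed sign under any of the 15 alternatives. Of the calls, 8 of 19, 1 of 10 and 0 of 14 held under all of them.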
